A study of Homo sapiens with 3 samples.

Results

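The 10 genes described here are negative regulators and transcriptional outputs of ERK signaling: the dual-specificity phosphatases DUSP4, DUSP5 and DUSP6, the Sprouty genes SPRY1, SPRY2 and SPRY4, the Sprouty-related genes SPRED1 and SPRED2, and the ETS transcription factors ETV4 and ETV5. The members are every probe that the array design assigns to one of these symbols, and the rule sets no threshold on a measured value. This gave 12 of the 58200 probes, for 10 of the 43316 genes measured. The study asked what changes in expression accompany acquired resistance to osimertinib, an inhibitor of the EGFR tyrosine kinase. Messenger RNA was measured in 3 cell lines with 1 single-color Agilent array each, all on the same slide.

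H1975 is a human non-small cell lung cancer line driven by mutated EGFR, and it was the osimertinib-sensitive parent. Its osimertinib-resistant derivatives OR1 and OR2 were selected independently of each other from separate flasks of H1975 with osimertinib doses that were raised in steps, over 4 months, to 2 μmol/L. All 3 lines were grown in RPMI medium with fetal bovine serum, and all share the EGFR mutations of the parent. Each resistant line stands for a single selection, and whether the drug was present when RNA was taken is not given in the sources used here. The epithelial identity in the labels was checked with 10 marker genes, of which 9 were well above background in every line. Among them EPCAM, KRT7, KRT19 and CDH1 were at least 2-fold lower in both resistant lines (EPCAM stood at ratios of 0.0370 and 0.0725). SFTPC was higher in both, from an intensity of 24.0 in H1975. KRT8 (ratios of 1.12 and 0.964), KRT18 (0.884 and 0.806) and NAPSA (0.770 and 1.57) stayed between 0.5 and 2 in both lines. NKX2-1 was lower in OR1 alone (0.252 and 1.36). The summed scaled intensity of the 10 was 2486 in H1975 against 1073 in OR1 and 1073 in OR2. Of the H1975 sum, KRT7, KRT18 and KRT19 made up 835, 476 and 952. Of 9 markers of leukocytes, endothelium and fibroblasts, 8 were on the array and 6 were well above background in at least 1 line, with a summed scaled intensity of 4.74 in H1975 against 5.67 in OR1 and 1.14 in OR2. The intensity of PTPRC, which defines leukocytes, was 21.0, 20.7 and 20.5 in H1975, OR1 and OR2, and CD3E of T cells was not well above background in any line. Endothelial PECAM1 stood at ratios of 2.10 and 1.19. Of the fibroblast genes, COL1A2 was lower in both lines (ratios of 0.162 and at most 0.0615), COL1A1 stood at 1.45 and 0.183, LUM was well above background in OR1 alone, at 59.8, and DCN in no line. The part of these marker differences in the values below was not tested.

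In the ERK pathway, a receptor such as EGFR activates RAS, which drives a chain of kinases from RAF through MEK to ERK. Active ERK induces transcription of its own inhibitors, so that mRNA of DUSP6, SPRY4, SPRED and ETV genes is widely used as a readout of pathway output in lung cancer cells with EGFR mutations. The phosphatases remove phosphate from ERK, Sprouty and SPRED proteins act upstream at the level of RAS and RAF, and ETV4 and ETV5 carry the signal into transcription of further genes.

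The following probes are shown because the results turn on them: DUSP6 and ETV4 were lower and SPRY2 was higher than in H1975 by at least the ratio of the methods, and the 2 probes of SPRY1 report different stretches of the same gene. Each line gives the first 30 of the 60 bases, 5′ to 3′, as spotted on the array.
DUSP6: gcttgtgttgtcgcaaaggggataatctgg
ETV4: tctcaaggctgagtttgaccggcctgtcag
SPRY2: agaacttggtgacccatgtattgcataagc
SPRY1, brighter probe: aagggacgacgcccgcctttctctctccga
SPRY1, dimmer probe: ctcaagttgatatttatagctgatcaatct
On hg19 the DUSP6 probe (NM_001946) lies on the minus strand of chromosome 12 from 89742144 to 89742203, the ETV4 probe (NM_001079675) on the minus strand of chromosome 17 from 41605966 to 41606025, and the SPRY2 probe (NM_005842) on the minus strand of chromosome 13 from 80910622 to 80910681. The SPRY1 probes are on the plus strand of chromosome 4, the brighter (NM_001258038) from 124318918 to 124318977 and the dimmer (NM_199327) from 124324494 to 124324553. The 10 genes lie on 10 different chromosomes. Their accessions in the array design matched the same symbol in RefSeq for 12 of 12 probes. The position of a probe in an exon or UTR was not analysed here.

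Intensities are the brightness of a spot after the scanner software's background correction, given as on the array, and ratios were taken after each array was divided by its 75th percentile (157 in H1975 against 138 in OR1 and 162 in OR2). The technical SD comes from the scanner software's error estimate for a spot, on the log2 scale for a ratio. It describes how well 1 RNA sample was measured and leaves out variation between cultures. There are no replicates, since each line has 1 array, so that no test was possible and no p-value is given. As in the methods, a gene was called higher at a ratio of at least 2 and lower at a ratio of at most 0.5. All 12 probes were well above background in all 3 lines, so that each of the 10 genes had a measured ratio in each comparison. For SPRY1 and SPRY4, which had 2 probes each, the brighter probe stood for the gene. Probes differ in brightness for equal amounts of RNA, and levels were compared only between lines.

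In both resistant lines DUSP6 mRNA was far lower than in H1975, ETV4, SPRY4, SPRED1 and SPRED2 were lower by smaller factors, and SPRY2 was the gene above H1975 in both, although SPRY2 in OR1 turned to 0.933 when arrays were scaled on spike-in RNA. DUSP5 and ETV5 lay on opposite sides of H1975 in the resistant lines, as did DUSP4 and SPRY1 except with spike-in scaling. In OR1, 1 of the 10 genes was called lower (DUSP6) and 0 were called higher, against 9.58% of all genes called lower and 9.17% called higher. In OR2, 2 were called lower (DUSP6 and ETV4) and 1 was called higher (SPRY2), against 8.7% and 7.72% of all genes. In both lines together, 1 gene was called lower (DUSP6) and 0 higher, against 6.7% and 5.4%. These shares are near those of all genes, and nothing particular to the 10 genes is read from the counts. Their median log2 ratio was -0.24 in OR1 and -0.41 in OR2, where the median over all genes was 0.04 and -0.06. Both comparisons use the same H1975 array, so that an error in that array enters both.

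**Figure D1:**
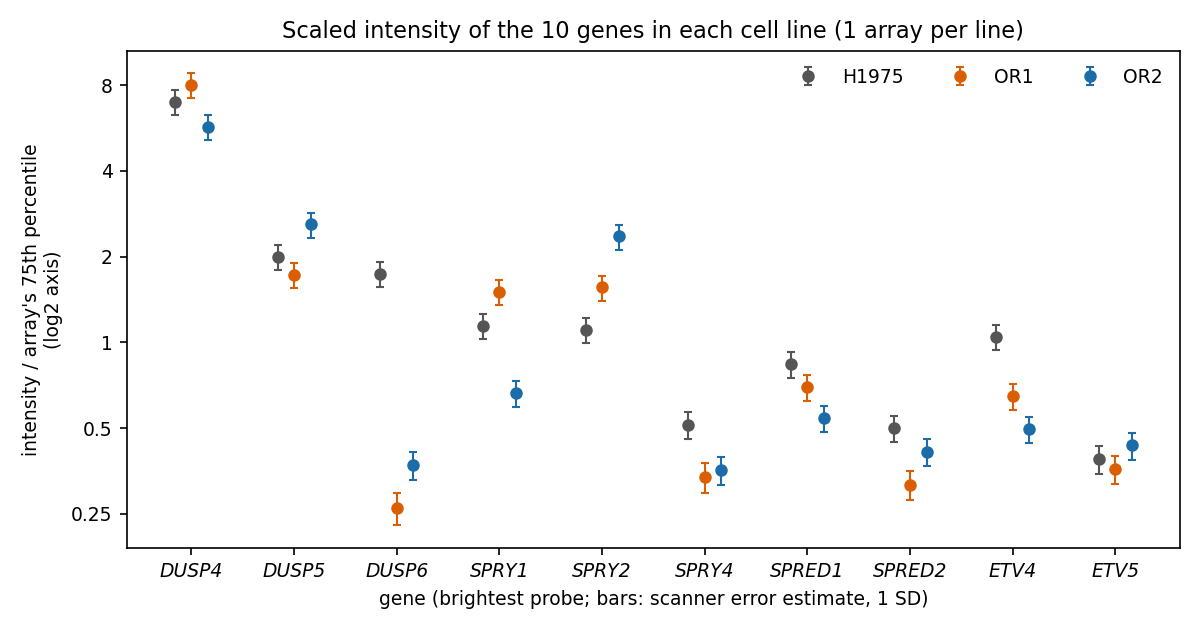
Intensity of each gene's brightest probe divided by its array's 75th percentile (log2 axis), 1 point per cell line with the scanner software's error estimate for the spot as bars (1 SD). DUSP6 shows the widest gap, with intensities of 273 in H1975 against 36.1 in OR1 and 60.1 in OR2 before scaling, and heights are not comparable between genes.

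DUSP6 encodes the cytoplasmic phosphatase that is selective for ERK. Its intensity was 273 ± 27.5 in H1975 against 36.1 ± 4.68 in OR1 and 60.1 ± 6.78 in OR2 (scanner error estimates, 1 array each). H1975 was the high line, and both resistant lines were low without overlap of the error ranges. The ratio was 0.151 in OR1, which is 6.63-fold lower, and 0.214 in OR2, which is 4.67-fold lower, with log2 ratios of -2.73 (technical SD 0.24) and -2.22 (technical SD 0.22). Of 21869 genes with a ratio in OR1, 298 had a lower one than DUSP6, and of 21689 genes in OR2, 398 had. The call was kept under each of the 11 alternatives of processing that give ratios, over which the DUSP6 ratio ranged from 0.0999 to 0.323 in OR1 and from 0.211 to 0.364 in OR2. Among these, the background filters and the median over a gene's probes could not change the ratio. DUSP6 has a single probe, which was well above background in every line. The 20 measured genes nearest to DUSP6 on chromosome 12, within 4.05 Mb in OR1 and 4.06 Mb in OR2, had median log2 ratios of -0.13 and -0.06, and 0 of the 20 were lower than DUSP6 in either line.

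DUSP4 and DUSP5 encode nuclear phosphatases of the same family, which are likewise induced by ERK signaling. DUSP4 (NM_001394, chromosome 8 of hg19 from 29194382 to 29194441) gave an intensity of 1103 in H1975 against 1105 in OR1 and 923 in OR2. Scaled, it was highest in OR1 and lowest in OR2, at ratios of 1.14 and 0.815 to H1975, but below H1975 in OR1 with spike-in scaling (0.757). Neither log2 ratio exceeded 2 technical SDs (0.19 and -0.30, technical SD 0.20 each). DUSP5 (NM_004419, chromosome 10 from 112270900 to 112270959) ran the other way, with an intensity of 313 in H1975 against 237 in OR1 and 420 in OR2. The ratio was thus 0.865 in OR1 and 1.30 in OR2, with log2 ratios of -0.21 (technical SD 0.21) and 0.38 (technical SD 0.20), again within 2 technical SDs of H1975. Neither nuclear phosphatase passed the ratio of 2 or 0.5 to H1975 in any of the 12 settings, of which spike-in scaling took DUSP5 in OR1 lowest, to 0.573.

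The Sprouty genes encode membrane-associated inhibitors of receptor tyrosine kinase signaling to RAS and RAF. The 3 measured here took 3 different courses. SPRY2 had an intensity of 174 ± 17.7 in H1975 against 215 ± 21.7 in OR1 and 381 ± 38.2 in OR2. It was highest in OR2 and lowest in H1975, or in OR1 with spike-in scaling, at 1.41 times H1975 in OR1 and 2.13 times in OR2 (log2 0.50 and 1.09, technical SD 0.21 each). In OR2 93.5% of all genes with a ratio lay below it. SPRY2 in OR2 passed the ratio of 2 in 11 of 12 settings, and normexp background correction gave 1.84.

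SPRY1 separated the resistant lines from each other. On the brighter probe its intensity was 180 ± 18.2 in H1975 against 207 ± 20.9 in OR1 and 107.01 ± 11.1 in OR2. OR2 was the low line, at a ratio of 0.579 to H1975 (log2 -0.79, technical SD 0.21), while OR1 was at 1.31 (log2 0.39, technical SD 0.21), or 0.870 with spike-in scaling. The dimmer probe, which lies farther along the gene, gave intensities of 34.5, 50.7 and 29.1 and ratios of 1.68 in OR1 and 0.820 in OR2, in the same order of lines. On this probe OR2 was within 2 technical SDs of H1975, at a log2 ratio of -0.29 (technical SD 0.28).

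SPRY4 was below H1975 in both resistant lines on both of its probes. The brighter probe (NM_030964, chromosome 5 from 141690571 to 141690630) gave intensities of 80.9 in H1975 against 46.4 in OR1 and 57.7 in OR2. The ratio to H1975 was 0.654 for OR1 and 0.693 for OR2. The log2 ratios of -0.61 and -0.53 (technical SD 0.23 each) exceeded 2 technical SDs and did not reach the ratio of 0.5, although OR1 did with spike-in scaling (0.433). With normexp the log2 ratios were -0.27 and -0.26, within 2 of the technical SDs above, which were not recomputed for normexp. The dimmer probe (NM_001293289, from 141694487 to 141694546) gave 21.3, 13.7 and 16.4, close to the lowest intensity called well above background (12.6 in H1975, 11.4 in OR1, 12.6 in OR2), with ratios of 0.735 and 0.748. The genes around SPRY4 were lower as well: over the nearest 20 the median log2 ratio was -0.45 (OR1) and -0.44 (OR2), and 8 and 9 of them lay below SPRY4. The part of this regional shift in the SPRY4 values was not tested.

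SPRED1 and SPRED2 encode Sprouty-related proteins, which bring the RAS inactivator neurofibromin to the membrane. SPRED1 (NM_152594, chromosome 15 from 38645760 to 38645819) gave intensities of 132 in H1975 against 95.9 in OR1 and 87.6 in OR2, and SPRED2 (NM_181784, chromosome 2 from 65538851 to 65538910) had 78.7, 43.7 and 66.8. Both were highest in H1975, but SPRED2 was lowest in OR1 and SPRED1 in OR2, or in OR1 with spike-in scaling. The SPRED1 ratio was 0.831 in OR1 and 0.647 in OR2, and only the OR2 value, at a log2 ratio of -0.63 (technical SD 0.21), exceeded 2 technical SDs. The SPRED2 ratio was 0.633 in OR1, at a log2 ratio of -0.66 (technical SD 0.22), and 0.826 in OR2, within 2 technical SDs. With spike-in scaling SPRED2 in OR1 was 0.419 and was called lower, and SPRED1 in OR1 was 0.550. With normexp SPRED2 in OR1 was 0.809, within 2 of the technical SDs above, which were not recomputed for normexp.

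ETV4 and ETV5 are ETS factors of the PEA3 group, whose transcription follows ERK activity. ETV4 had an intensity of 165 ± 16.7 in H1975 against 89.2 ± 9.32 in OR1 and 80.2 ± 8.55 in OR2. H1975 was the high line, and OR1 and OR2 differed by less than 2 technical SDs. The ratio was 0.618 in OR1 and 0.474 in OR2, with log2 ratios of -0.70 and -1.08 (technical SD 0.21 each). The OR2 value lay just past 0.5 and was 0.614 with normexp background correction, and the OR1 value passed 0.5 only with spike-in scaling, at 0.409. The 20 genes nearest to ETV4 had median log2 ratios of -0.36 in OR1 and -0.35 in OR2, with 2 and 1 of them below ETV4. The ETV5 probe (NM_004454) lies on chromosome 3 from 185764547 to 185764606. Its intensity was 61.0 in H1975 against 49.4 in OR1 and 70.3 in OR2, with ratios of 0.924 and 1.12, both within 2 technical SDs of H1975. With spike-in scaling ETV5 was 0.611 in OR1, and OR2 was at 1.93 times OR1.

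**Figure D2:**
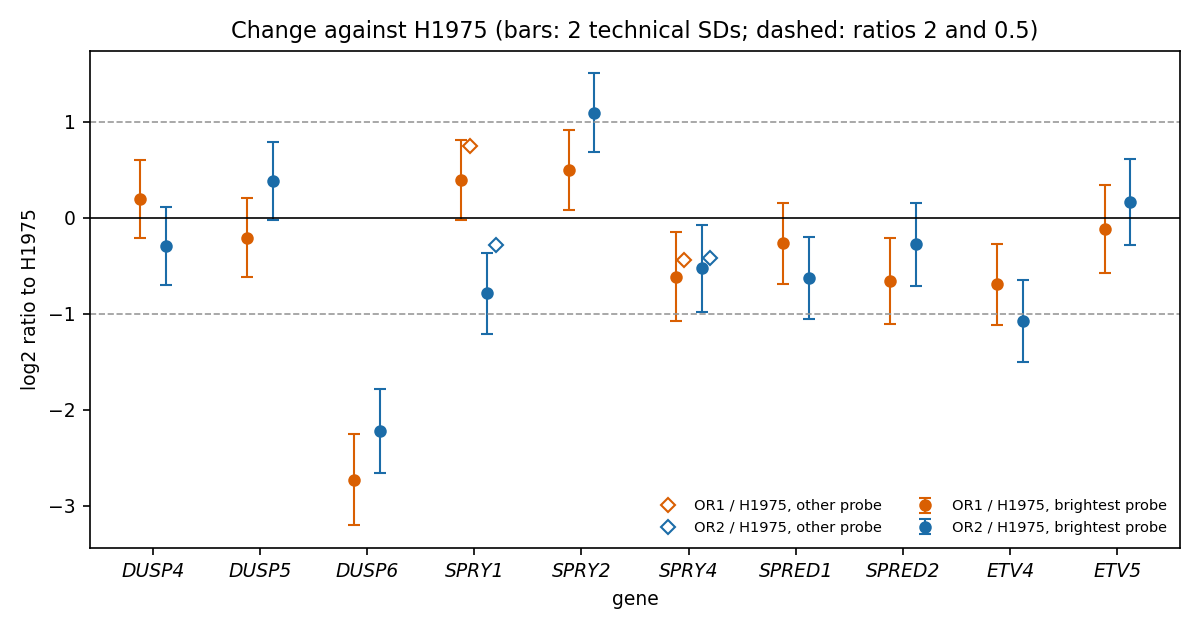
Log2 ratio of OR1 and OR2 to H1975 for each gene, with bars of 2 technical SDs on the brightest probe, open diamonds for the other probe of SPRY1 and SPRY4, and dashed lines at ratios of 2 and 0.5. DUSP6 in both lines, and ETV4 and SPRY2 in OR2, lie past the dashed lines, and ratios are to the same H1975 array.

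Of the 10 genes, 5 differed from H1975 by more than 2 technical SDs in OR1, 1 higher (SPRY2) and 4 lower (DUSP6, SPRY4, SPRED2 and ETV4), where 23.6% of the genes well above background on both arrays were higher and 22% lower by that margin. In OR2, 6 did, 1 higher (SPRY2) and 5 lower (DUSP6, SPRY1, SPRY4, SPRED1 and ETV4), against 20.8% and 25.2%. The 5 genes below H1975 in both lines (DUSP6, SPRY4, SPRED1, SPRED2 and ETV4) were so in each of the 12 settings.

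Set directly against each other, OR2 exceeded OR1 in DUSP5, DUSP6 and SPRY2 and fell short of it in SPRY1 and DUSP4, each by more than 2 technical SDs. At that margin 12.2% of genes well above background on both arrays were higher and 15.4% lower. For DUSP4 the margin depended on the processing, as given below. SPRY1, at a ratio of 0.441 of OR2 to OR1 (log2 -1.18, technical SD 0.21), was the gene called lower, and 0 were called higher, against 2.89% and 2.48% of all genes. The dimmer SPRY1 probe gave 0.489. The ratio was 1.51 for DUSP5, 1.51 for SPRY2 and 1.42 for DUSP6, which was 2.04 technical SDs on the log2 scale, or 1.13 with normexp. For DUSP4 it was 0.713, or 1.13 with spike-in scaling. The DUSP4 log2 ratio of -0.49 (technical SD 0.204) was -0.26 without scaling, -0.40 with median scaling and -0.39 with normexp. Each of these alternatives left DUSP4 within 2 of that technical SD, which was not recomputed. The median log2 ratio of OR2 to OR1 was 0.18 over the 10 genes and -0.07 over all genes. With spike-in scaling 4 genes were called higher in OR2 (DUSP5, DUSP6, SPRED2 and SPRY2), and SPRY1, at 0.702, was no longer called lower. The SPRY1 call was also lost without scaling (0.516) and with normexp (0.561), and it held in 9 of the 12 settings.

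The other pathway genes were described in 3 lists. Of 20 further negative regulators, 18 had a ratio in each line. In OR1, 1 was called higher and 3 lower, and in OR2, 0 were higher and 3 lower, with median log2 ratios of -0.25 and -0.05, whose sign turned in 1 and 5 of the 12 settings. As shares of the 18 genes, 5.56% were higher and 16.7% lower in OR1, and 16.7% were lower in OR2, against 9.17% higher and 9.58% lower of all genes in OR1 and 8.7% lower in OR2, and with so few genes nothing particular to the list is read from this. Called lower in both lines were DUSP10, a phosphatase of the stress-activated kinases (intensity 303 in H1975 against 59.4 in OR1 and 89.6 in OR2, ratios of 0.224 and 0.288), and RASA1, which inactivates RAS (1306, 352 and 563, ratios of 0.308 and 0.419). DUSP10 and RASA1 kept the call in each setting.

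Among 29 genes of the cascade itself, from RAS to the kinases downstream of ERK, 28 had a ratio. In OR1, 2 were called higher and 2 lower, and in OR2, 3 were higher and 2 lower, near the shares of all genes (9.17% higher and 9.58% lower in OR1, 7.72% and 8.7% in OR2). The median log2 ratio was 0.09 in OR1 and -0.07 in OR2, and its sign turned in 3 and 5 of the 12 settings. The RAS-related GTPases MRAS (intensity 306 in H1975 against 1240 in OR1 and 1054 in OR2) and RRAS2 (1968, 4973 and 5295) were called higher in both, with ratios of 4.63 and 3.36 for MRAS and of 2.88 and 2.62 for RRAS2. With spike-in scaling RRAS2 in OR1 was 1.91. BRAF, a RAF kinase, was called lower in both (525, 147 and 193, ratios of 0.320 and 0.358). RASGRP1, an activator of RAS, was well above background in H1975 alone, at ratios of at most 0.219 (OR1) and at most 0.207 (OR2), or at most 0.601 and at most 0.546 with normexp background correction.

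The 35 further genes on the list of ERK output genes include the transcription factors ELK1, ELK4 and SRF. Whether ERK signaling induces each of the 35 was not tested. Of the 35, 32 had a ratio in OR1 and 33 in OR2. In OR1, 2 were called higher and 6 lower, and 24 of 32 lay below H1975, with a median log2 ratio of -0.36. Of all genes in OR1, 9.17% were called higher, 9.58% were called lower and 47.7% lay below H1975. In OR2, 1 was called higher and 6 lower, and 27 of 33 lay below H1975, with a median log2 ratio of -0.30. Of all genes in OR2, 7.72% were called higher, 8.7% were called lower and 53.6% lay below H1975. These medians stayed negative in each of the 12 settings. Called lower in both lines were AREG, an EGFR ligand (intensity 1114 in H1975 against 342 in OR1 and 373 in OR2, ratios of 0.351 and 0.326), the neuropeptide precursor VGF (5233, 521 and 1961, ratios of 0.114 and 0.365), the AP-1 factor JUNB (860, 312 and 371, ratios of 0.414 and 0.420) and the early response gene IER5 (13646, 5127 and 6586, ratios of 0.428 and 0.470). In OR2, IER5 was 0.553 with quantile normalization. HBEGF, another EGFR ligand, went the other way (94.8, 200.4 and 243), with ratios of 2.41 and 2.50, or 1.60 in OR1 with spike-in scaling. With normexp HBEGF was below 2 in both lines, at 1.84 and 1.91. EREG, also an EGFR ligand of the list, had ratios of 0.242 and 0.702. MYC of the same list had ratios of 2.41 and 1.89 (intensity 5703 in H1975 against 12067 in OR1 and 11101 in OR2). EREG and MYC are named here after their values were seen.

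**Figure D3:**
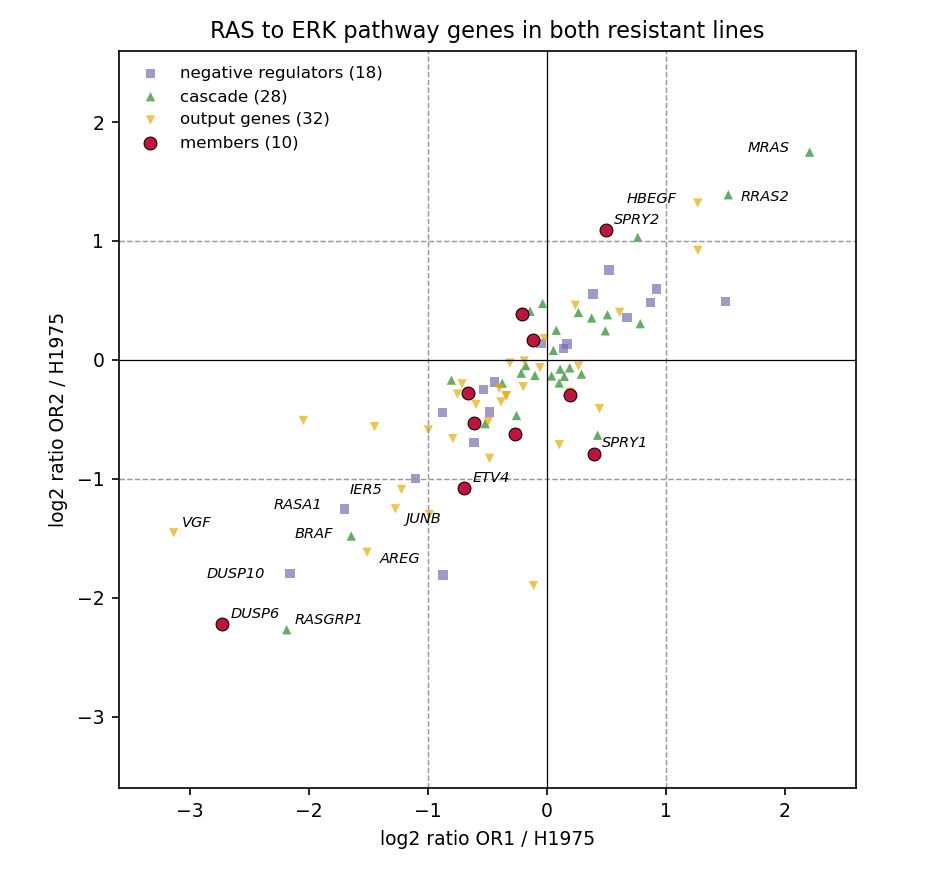
Log2 ratio to H1975 in OR1 (horizontal) and OR2 (vertical), both against the same H1975 array, for the 10 genes (red) and for the other negative regulators, cascade genes and output genes that had a ratio in both lines. DUSP6 lies at the lower left near DUSP10, ETV4 passes the dashed line at a ratio of 0.5 in OR2 only, and SPRY2 lies in the upper right below MRAS. Ratios that are bounds are drawn at the bound. RASGRP1, also at the lower left, is an upper bound in both lines, so that its distance from DUSP6 is not measured.

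Outside these lists, the gene whose pair of ratios was nearest to the median of the 10 genes (0.848 in OR1 and 0.752 in OR2) was RPL27, a ribosomal protein gene, at 0.848 and 0.752, by Euclidean distance on the log2 scale over 18581 genes well above background in all 3 lines. RefSeq promoter windows of 300 bases (GRCh38.p14) were found for 6 of the 10 genes, with 10 entries between them. The letters CCGGAAG, a core that ETS factors bind, were found on either strand in 1 of the 10 entries, of SPRY1, and in 10.3% of all 35116 windows. The letters TGANTCA of AP-1 were in 1 of the 10, of SPRED2, and in 7.71% of all, and TGACGTCA of CRE in 0 of the 10 and in 1.85% of all.

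**Figure D4:**
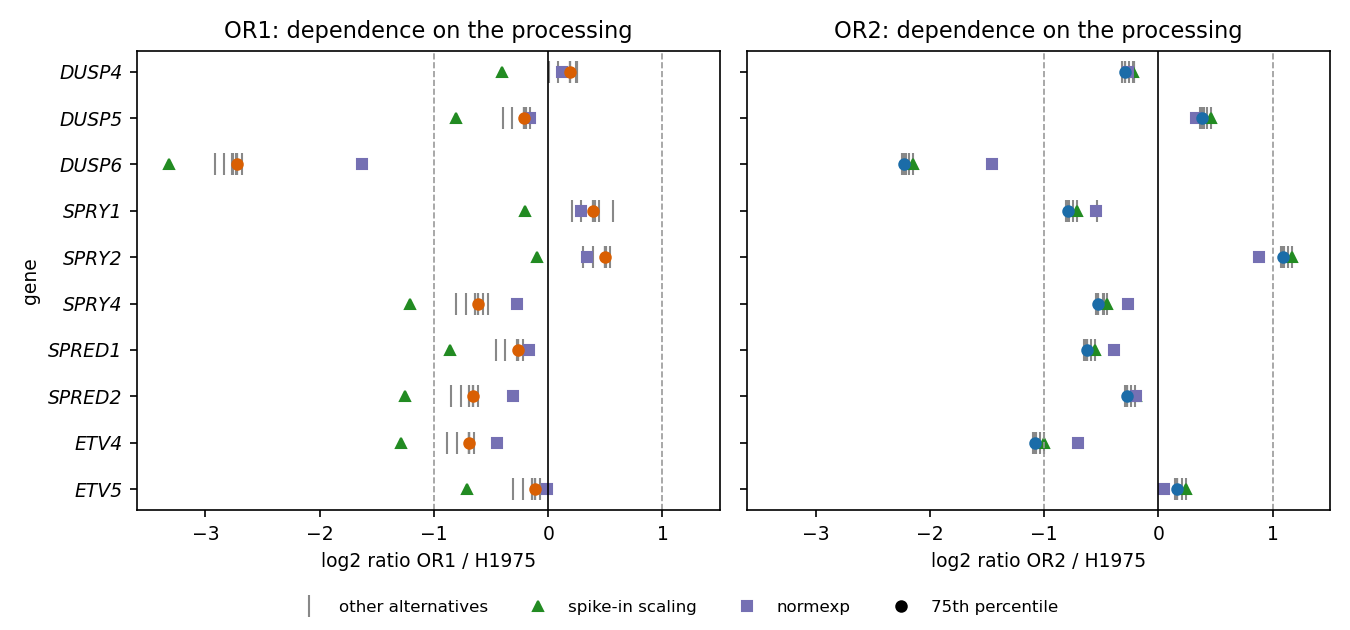
Log2 ratio to H1975 of the 10 genes in OR1 (left) and OR2 (right) under 12 settings of the processing: scaling on the 75th percentile (filled circles), spike-in scaling (triangles), normexp background correction (squares) and the others (ticks). In OR1 spike-in scaling moved every gene down and turned DUSP4, SPRY1 and SPRY2 below 0, and DUSP6 stayed below -1 throughout in both lines.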

How the data were processed

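Total RNA of H1975, OR1 and OR2 was labeled with Cy3 by the authors and hybridized to 1 Agilent single-color array per line. Each array was mapped to its line by its label. The deposited scanner output holds the intensity of each spot, corrected for background and spatial trends and not scaled between arrays. The Agilent Feature Extraction version is 10.7.1.1 per the file headers and 9.5.1.1 per the labels. A second deposited table holds normalized intensities on a linear scale, whose normalization is not given in the sources used here. Quantile normalization of the scanner output gave log2 values within a median of 0.00134 of this table, whose 3 columns each had a median of 9.51.

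Each array held 62976 spots, 60901 of them not controls and 0 saturated. Outlier spots (45 in H1975, 61 in OR1 and 46 in OR2) were left out, and repeated spots were averaged on the log2 scale. The array's 75th percentile was subtracted, and the brightest probe by mean stood for each gene. Between 45.6% and 45.9% of probes were well above background. Where a single side of a ratio was not, it was set to the lowest intensity well above background on its array, or kept its own value where that was higher. The ratio is then a bound. A gene had a ratio if well above background on either array.

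Named were the 10 genes with every probe, of each other list at most 4 genes called in each direction in both lines, and the 3 genes with the nearest pair of ratios, of which 1 had no gene symbol and 1 is not reported here. The genes, lists and alternatives were chosen with earlier results of these data known. The counting was tested on simulated data. The 14 alternatives were other scalings (quantile, median, none, 7 spike-in probes, a percentile over the probes detected above background on every array), normexp with an offset of 50, the authors' table, other filters, probe rules and ratios. Python 3.11.15, numpy 2.4.6, pandas 2.3.3, R 4.3.3 and limma 3.58.1 (normexp) were used, and quantile normalization was done in Python.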

Additional observations from a re-analysis of the deposited data

Results flagged for a closer look

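In 4 of the 10 genes OR1 and OR2 lay on opposite sides of H1975. The log2 ratio of SPRY1 was 0.39 in OR1 and -0.79 in OR2. For DUSP5 it was -0.21 in OR1 and 0.38 in OR2. DUSP4 had 0.19 in OR1 and -0.30 in OR2, and ETV5 had -0.11 and 0.16. Of these ratios, SPRY1 in OR2, on the brighter probe, was the only one more than 2 technical SDs from H1975. Whether the lines differ was not tested, since each has 1 array. With spike-in scaling SPRY1 and DUSP4 in OR1 fell below H1975, so that both lines then lay on the same side.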

How the results depend on the processing

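Of 330 log2 ratios of the 10 genes under alternatives, 288 stayed within 1 technical SD of the value reported and 42 moved farther, 20 of them with spike-in scaling and 13 with normexp. The background filters could not move these ratios, since all 12 probes were well above background on every array. The median over probes could move only SPRY1 and SPRY4, and the authors' table nearly repeats quantile normalization. Counts of settings for the 10 genes are therefore not counts of separate checks. No called ratio changed direction. Spike-in scaling shifted the median log2 ratio of all genes by -0.60 in OR1 and by 0.67 in OR2 against OR1, no scaling by -0.19 and 0.23, and median scaling by -0.11 in OR1. Each of these scalings moves every gene of a comparison by the same factor, so that the places of the 10 genes relative to that median stay. Quantile normalization does not move every gene by the same factor.

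With spike-in scaling the median log2 ratio of the 10 genes was -0.83 in OR1 and 0.85 for OR2 against OR1, 4 genes were called lower in OR1 (DUSP6, ETV4, SPRED2 and SPRY4), 2 lower in both lines (DUSP6 and ETV4), and 4 higher and 0 lower in OR2 against OR1. Without scaling, that comparison gave a median of 0.41 and 0 genes lower. With normexp, 0 genes were called higher and 1 lower (DUSP6) in OR2, and 0 lower against OR1. A ratio of 1.5 gave 4 lower in OR1, 4 lower in OR2, 2 lower in both and 2 higher in OR2 against OR1, and a ratio of 4 gave 0 higher and 1 lower in OR2 and 0 lower against OR1. For normexp and the scalings the cause was not tested.

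No paired analysis was possible because each line has 1 array. All 3 arrays share a slide, which could not be a block. Intensity over background limits the dimmer SPRY4 probe most.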

Other observations

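The array also carries 8 probes for long non-coding RNAs that its design names after neighbouring genes of the set. They were chosen after their values were seen. The probe named lnc-SPRY2-4 had an intensity of 3.38 in H1975 against 39.3 in OR1 and 3.39 in OR2 and was well above background in OR1 alone, at a ratio of at least 3.56 to H1975. SPRY2 itself was highest in OR2. The probe named lnc-DUSP4-4 had 24.3 in H1975 against 26.3 in OR1 and 8.10 in OR2, where it was not well above background, with a ratio of 1.23 in OR1 and of at most 0.506 in OR2. The other 6 were not well above background on any array.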
